A study of Mus musculus with 12 samples.

Results

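The proteasome subunits measured here are every probe set of the MG_U74Av2 array whose single gene symbol begins with Psma, Psmb, Psmc, Psmd or Psme. The rule finds 53 probe sets for 42 genes, of 12488 probe sets and 8251 genes with a single symbol on the array. Of these, 41 probe sets (31 genes) are constitutive subunits of the 20S core and the 19S cap. Another 5 probe sets (4 genes) belong to the immunoproteasome: Psmb8, Psmb9, Psmb10 and Psme1. A further 5 probe sets are assembly chaperones or alternative activators. The last 2, Psmc3ip and Psme3ip1, match by spelling and encode no proteasome subunit. Psme2, the partner of Psme1, is named only by 2 probe sets that carry several symbols, so it lies outside the rule and is not counted.

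RNA came from normal intestine and from tumors of male APC(Min/+) mice, a strain with an inherited truncation of the tumor suppressor Apc that develops intestinal adenomas. All 12 arrays are Min/+ and 91 days of age, 6 per tissue; each tissue holds 1 Dnmt+/- and 1 Dnmt+/+ array on each of diets #1, #2 and #3. The labels do not say which Dnmt gene carries the deletion, what the diets contained, which stretch of intestine was taken, or whether tumors were pooled. Each normal array shares a sample code with 1 tumor array (6 pairs). No label says that a pair is 1 mouse or that arrays of a tissue come from separate mice, so p-values measure only the spread between these samples.

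The 20S core is a barrel of stacked rings: alpha subunits gate the entrance, and beta subunits line the chamber, where Psmb5, Psmb6 and Psmb7 carry the peptide-cutting sites. The 19S cap recognises ubiquitin-tagged proteins; its base unfolds them with a ring of ATPases (Psmc genes), and its lid removes the ubiquitin. Under interferon, cells make alternative catalytic subunits, Psmb8, Psmb9 and Psmb10, which take the places of Psmb5, Psmb6 and Psmb7 in newly built particles and change which peptides are offered on MHC class I. Psme1 and Psme2 together form PA28, an interferon-inducible activator that docks on the core in place of the 19S cap.

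Psmb9 and Psmb8 sit beside Tap1 and Tap2, which build the peptide pump of the class I pathway, in the order Psmb9, Tap1, Psmb8, Tap2 on chromosome 17 of RefSeq's GRCm38.p6 annotation. The Psmb9 and Tap1 starts face away from each other, and the 225 bases between them are shown because they lie upstream of both genes at once. The upstream 250 bases of Psmb8 and of its constitutive counterpart Psmb5 follow for contrast. Capitals mark matches to 3 short motifs, searched on both strands. GAAANNGAA (TTCNNTTTC on the other strand) is an interferon regulatory factor element. TTCNNNGAA is the core of an interferon-gamma activated site. TGANNNNGC (GCNNNNTCA on the other strand) is the core of an antioxidant response element. The windows are chr17:34187331-34187555 (plus strand), chr17:34197945-34198194 (plus strand) and chr14:54617996-54618245 (minus strand).
Psmb9 to Tap1: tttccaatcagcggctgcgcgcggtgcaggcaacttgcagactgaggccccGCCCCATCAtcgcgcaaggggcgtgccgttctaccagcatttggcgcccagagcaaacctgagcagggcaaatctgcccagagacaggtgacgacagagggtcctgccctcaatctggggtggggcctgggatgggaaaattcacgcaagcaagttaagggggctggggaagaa
Psmb8: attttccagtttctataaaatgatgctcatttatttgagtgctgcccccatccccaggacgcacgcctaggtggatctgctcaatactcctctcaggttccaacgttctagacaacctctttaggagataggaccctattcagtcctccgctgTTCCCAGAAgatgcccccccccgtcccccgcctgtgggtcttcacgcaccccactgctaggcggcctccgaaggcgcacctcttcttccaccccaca
Psmb5: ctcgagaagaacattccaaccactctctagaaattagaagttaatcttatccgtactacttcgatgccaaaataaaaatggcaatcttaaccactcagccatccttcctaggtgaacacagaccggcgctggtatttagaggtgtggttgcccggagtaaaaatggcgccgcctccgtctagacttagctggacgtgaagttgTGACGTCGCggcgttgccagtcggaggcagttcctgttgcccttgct

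The Psmb9 to Tap1 stretch held 1 antioxidant core and neither interferon motif, the Psmb8 window held 1 TTCNNNGAA, and the Psmb5 window held 1 antioxidant core. A RefSeq upstream window was found for 36 of the 42 member genes. Over the 250 upstream bases, GAAANNGAA occurred in 7.13% of the 32851 windows in the table, in 0 of 4 immunoproteasome genes and in 2 of 25 constitutive genes (Psmb3 and Psmd4). TTCNNNGAA occurred in 7.02% of windows, in Psmb8 alone among the 4 immunoproteasome genes and in 0 of the 25 constitutive genes. TGANNNNGC occurred in 35.2% of windows, in 1 of 4 immunoproteasome genes (Psmb9) and in 9 of 25 constitutive genes. These are descriptions of letters in a window; motifs elsewhere in the genes were not searched.

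Deposited values are linear intensities. They were brought to a common distribution (quantile normalization), raised to a floor of 44.8 where lower, and converted to log2; levels below are on this normalized log2 scale and differences are log2 tumor minus normal with their standard error. The 40% of probe sets with the lowest mean were left out, which kept 7453 probe sets, 44 of the 53 members (39 genes) among them. The 9 members that did not pass include the sole probe sets of 3 genes: Psmc4, Psmd2 and Psmc3ip. The mean deposited intensity was 306 to 403 on the 4 diet #1 arrays, where 40.9% to 46% of values stood at exactly 50, and 1000 on the other 8 arrays, where no value did; diet #1 and this difference in format cannot be told apart. On both normal arrays of diet #2, the summed intensity of 5 exocrine pancreas genes was 147616 and 155561, against at most 2505 on every other array; 0 of these 5 genes were called between tissues in limma (0 at an unadjusted p under 0.05). Among epithelial markers, 4 of 11 tested genes were higher in tumors, against 17.0% of all probe sets, with a median of 0.29. The keratins Krt18 (2.50), Krt19 (1.15) and Krt8 (0.83) had the largest differences among those called. The summed intensity of the list was 113121 to 124092 in tumors and 74515 to 90824 in normal arrays. After median scaling 3 of the 11 were higher and 1 lower, with a median of -0.02. Of 16 proliferation genes 13 were higher, against 17.0% of all probe sets, and 12 after median scaling. Over all 7453 probe sets, 940 were higher and 1746 lower after median scaling. The Dnmt1 probe set had a fitted difference of -0.91 ± 0.36 (SE) between Dnmt+/- and Dnmt+/+ arrays (limma adjusted p = 0.719), so these arrays do not settle which gene the label refers to.

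All 3 interferon-inducible catalytic subunits fell in tumors, and their tumor and normal arrays did not overlap. Psmb9 fell 2.98-fold, Psmb8 fell 2.11-fold and Psmb10 fell 1.37-fold, each in 6 of 6 code pairs. The activator subunit Psme1 did not pass the test. Thus 3 of 4 tested immunoproteasome probe sets were lower and 0 were higher, against 16.5% of all 7453 probe sets called lower. Complete separation of the tissues in this direction held for 3 of the 4, against 4.78% of all probe sets.

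Psmb9 (also called LMP2), which replaces Psmb6, had normalized log2 levels of 10.34, 11.01 and 11.13 (lowest, median, highest) in the 6 normal arrays. In the 6 tumor arrays its levels were 8.67, 9.35 and 9.71. Every tumor array therefore lay below every normal array, and the difference was -1.58 ± 0.18 (limma adjusted p = 0.000214). Within diets #1, #2 and #3 the tissue difference of Psmb9 was -1.51, -1.74 and -1.48, so no diet carried the fall alone. In both tissues the lowest Psmb9 level came from the Dnmt+/- array of diet #1, with the next arrays at 10.95 (normal) and 9.28 (tumor).

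Psmb8 (LMP7), which replaces Psmb5, had levels of 11.28, 11.56 and 11.81 in normal arrays. Its levels in tumors were 10.21, 10.46 and 10.77, again with no overlap. The difference was -1.08 ± 0.12 (limma adjusted p = 0.00024), with -0.88, -1.27 and -1.09 in diets #1, #2 and #3. Psmb10 (MECL-1), which replaces Psmb7, had levels of 12.03, 12.23 and 12.29 in normal arrays and of 11.59, 11.69 and 11.95 in tumors. Its separation was narrow, and the difference of -0.45 ± 0.07 (limma adjusted p = 0.0015) was the smallest of the 3 subunits. Its diet values were -0.39, -0.42 and -0.54. Psme1 (PA28 alpha) had levels of 11.31, 11.46 and 11.49 in normal arrays and 11.33, 11.38 and 11.50 in tumors. Those ranges lie almost on top of each other; the difference was -0.04 ± 0.07 (limma adjusted p = 0.677). After median scaling, Psme1 was also called lower (-0.30, limma adjusted p = 0.0169). In whole tissue, fewer cells of a type and less RNA per cell cannot be told apart.

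**Figure D1:**
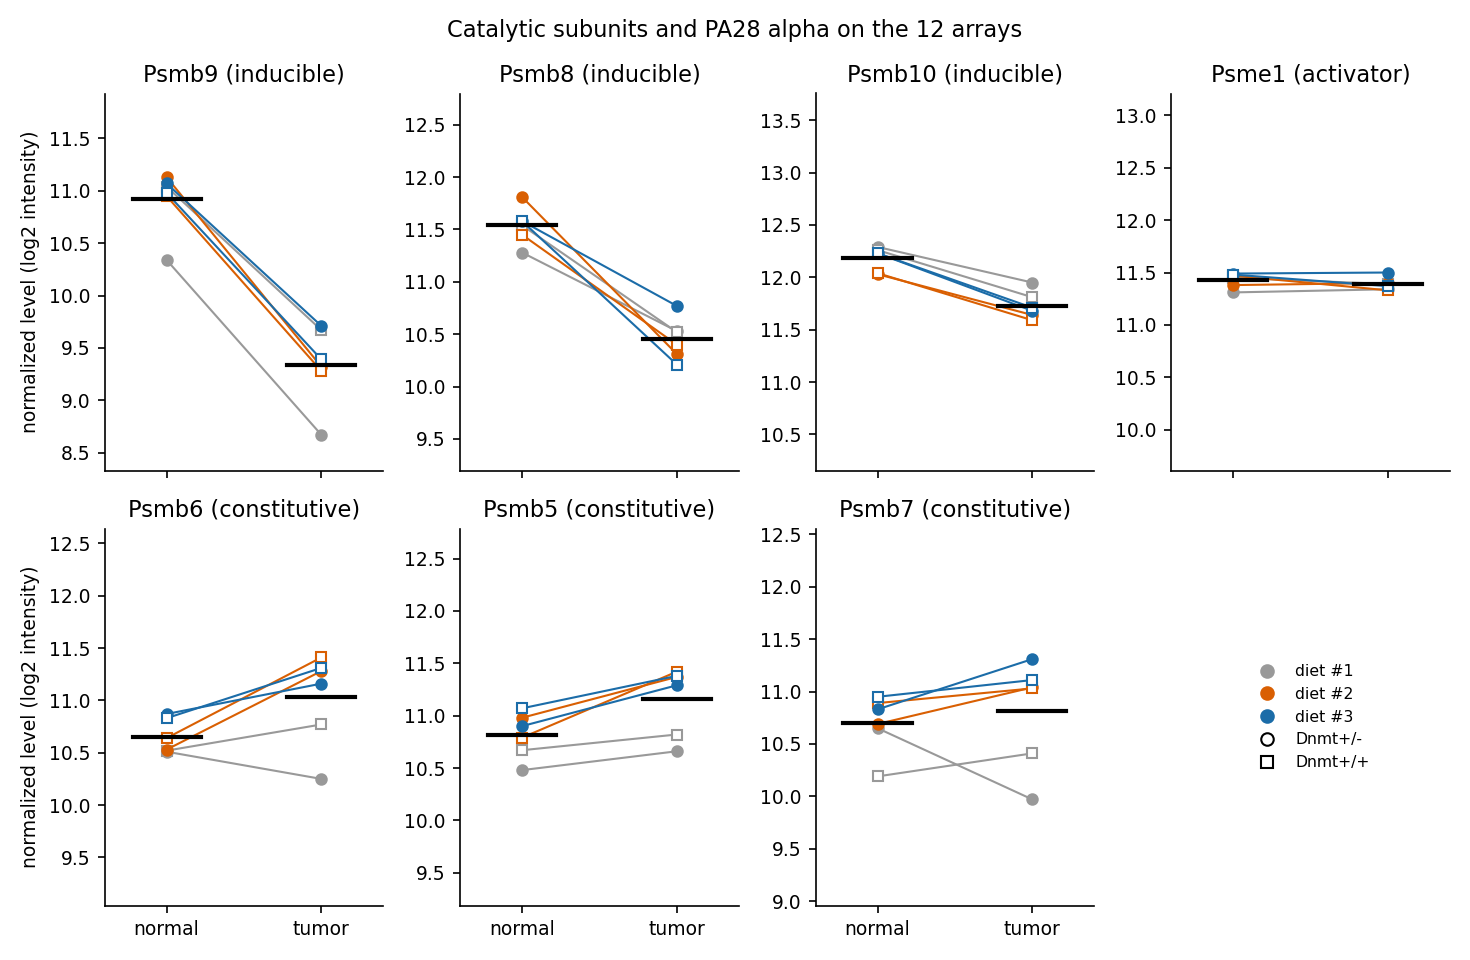
Normalized log2 level (vertical axis, same span in each panel) of the inducible catalytic subunits, Psme1 and the constitutive catalytic subunits in normal and tumor arrays (horizontal axis). Lines join arrays of 1 sample code, colours mark the diet, filled circles Dnmt+/-, open squares Dnmt+/+, and black bars the mean of 6 arrays; all 6 lines of Psmb9, Psmb8 and Psmb10 slope down, while Psme1 is nearly flat and Psmb5 slopes up in all 6.

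None of the constitutive counterparts was called lower in limma. Psmb5, the chymotrypsin-like site, had levels of 10.48, 10.85 and 11.07 in normal arrays and of 10.66, 11.33 and 11.42 in tumors for the probe set 101558_s_at. It rose in 6 of 6 pairs (0.34 ± 0.09, limma adjusted p = 0.0174), though the ranges overlap and the call was lost after median scaling (0.12, adjusted p = 0.374) and on the values as deposited (0.35, adjusted p = 0.0803). A second, dimmer Psmb5 probe set, 160559_at, had a difference of -0.08 (adjusted p = 0.614), with levels of 7.79 to 8.47 in normal arrays and 7.74 to 8.52 in tumors. The 2 probe sets of Psmb5 therefore disagree.

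Psmb6, the caspase-like site, had levels of 10.51, 10.59 and 10.87 in normal arrays and of 10.25, 11.22 and 11.41 in tumors. Its difference was 0.38 ± 0.14 (limma adjusted p = 0.0575), which misses the threshold. The lowest Psmb6 tumor level was that of the diet #1 Dnmt+/- array, without which the difference was 0.49 (adjusted p = 0.00983). Leaving out the normal array of the same code also brought it past the threshold (0.45, adjusted p = 0.0321). It did not pass after median scaling (0.16, limma adjusted p = 0.341) or on the values as deposited (0.39, adjusted p = 0.0984). Psmb7, the trypsin-like site, had levels of 10.19, 10.76 and 10.95 in normal arrays and of 9.97, 11.03 and 11.31 in tumors. The ranges overlap throughout, and the difference was 0.11 ± 0.14 (adjusted p = 0.577).

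Because each inducible subunit competes for the place of 1 constitutive subunit, the change of each pair was compared within arrays, which cancels any scaling of a whole array. The tissue difference of Psmb9 was lower than that of Psmb6 by a mean of -1.95 ± 0.47 (SD, n = 6 pairs; pairs ranged from -2.55 to -1.40), a 3.88-fold shift. All 6 pairs were negative (two-sided exact sign permutation test, p = 0.0312, the smallest that 6 pairs allow; 0.0469 after Benjamini-Hochberg adjustment over 3 comparisons). For Psmb8 against Psmb5 the mean was -1.42 ± 0.38 (SD, n = 6 pairs), a 2.68-fold shift, with 6 of 6 pairs negative and the same exact p = 0.0312 (adjusted 0.0469). This used the brighter Psmb5 probe set, 101558_s_at; with 160559_at the mean was -1.0 ± 0.41 (SD, n = 6 pairs), 6 of 6 pairs were negative and the exact p was 0.0312, without adjustment. For Psmb10 against Psmb7 it was -0.56 ± 0.47 (SD, n = 6 pairs), with 5 of 6 pairs negative (exact p = 0.0625, adjusted 0.0625). Relative to their constitutive counterparts, Psmb9 and Psmb8 transcripts thus fell, while the Psmb10 pair missed the threshold. By diet #1, #2 and #3 the shift was -1.51, -2.49 and -1.86 for Psmb9 against Psmb6. It was -1.04, -1.78 and -1.44 for Psmb8 against Psmb5, and -0.16, -0.66 and -0.86 for Psmb10 against Psmb7. In each pair the diet #1 value was the smallest.

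Among the constitutive subunits, 13 of 34 tested probe sets (13 of 29 genes) were higher in tumors and 0 were lower, against 17.0% of all probe sets called higher. Their median difference was 0.20, with single values from -0.24 to 0.70; over all probe sets tested the median was -0.01. At an unadjusted p under 0.05 there were 17. None of the 34 separated the tissues completely upward, against 5.82% of all probe sets. Of the 13 called, 12 were higher in 6 of 6 pairs. The changes are thus small next to those of Psmb9 and Psmb8, and the levels of the 2 tissues overlap for every constitutive probe set tested.

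In the alpha ring, 3 of 7 genes rose (42.9%, against 17.0% of all probe sets). They were Psma2 (0.31, limma adjusted p = 0.0252), Psma3 (0.40, adjusted p = 0.00766) and Psma5 (0.32, adjusted p = 0.0108). Of these, the Psma2 call was lost with the sample code as a replicate block (adjusted p = 0.0512). After median scaling the values were -0.02, 0.03 and 0.11, and as deposited 0.21, 0.26 and 0.34, so that none of the alpha ring was called higher under either scaling in limma (0 of 7). The remaining alpha subunits, Psma1, Psma4, Psma6 and Psma7, had differences of -0.04, -0.11, 0.18 and 0.07 and did not pass. In the constitutive beta ring 1 of 9 probe sets passed (11.1%, against 17.0% of all probe sets), that of Psmb5 given above. The structural beta subunits Psmb1, Psmb2, Psmb3 and Psmb4 had values of 0.12 to 0.29, the highest that of Psmb4 (adjusted p = 0.0558). Under the other scalings no beta subunit was called in limma (0 of 7 genes). Over all 7453 probe sets, 940 were called higher after median scaling and 1505 as deposited.

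Among the ATPases of the base, which pull substrates into the core, 3 of 7 probe sets rose (42.9%, against 17.0% of all probe sets). They were Psmc2 (0.44, limma adjusted p = 0.00253), Psmc3 93735_f_at (0.47 ± 0.09, adjusted p = 0.00366) and Psmc6 (0.39, adjusted p = 0.0168). After median scaling 1 of 5 ATPase genes was called higher, and as deposited 2 of 5. Over all 7453 probe sets, 940 were called higher after median scaling and 1505 as deposited. Psmc1 (0.19) and Psmc5 (0.29) did not pass. Psmc3 93735_f_at had levels of 9.78, 10.03 and 10.53 in normal arrays and of 10.24, 10.48 and 10.99 in tumors, higher in every pair with overlapping ranges. The 2 further Psmc3 probe sets had differences of 0.21 (93734_i_at, adjusted p = 0.123) and -0.11 (100225_f_at, adjusted p = 0.878). Of the non-ATPase base, the ubiquitin receptor Psmd4 rose (0.42, adjusted p = 0.0445) and was higher in 5 of 6 pairs; the call was lost with the replicate block (adjusted p = 0.053) and after median scaling (0.26, adjusted p = 0.169). The scaffold Psmd1 had a difference of -0.24 ± 0.48. Its deposited value was 50 on the diet #1 Dnmt+/- tumor array, and its tissue difference was -1.58 in diet #1 but 0.42 and 0.45 in diets #2 and #3.

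In the lid, 5 of 9 probe sets rose (55.6%, against 17.0% of all probe sets). After median scaling 3 of 8 lid genes were called higher, and as deposited 5 of 8. Over all 7453 probe sets, 940 were called higher after median scaling and 1505 as deposited. Psmd12 (Rpn5, a structural lid subunit) had levels of 7.36, 8.78 and 9.34 in normal arrays and of 8.32, 9.38 and 9.85 in tumors. It was higher in all 6 pairs by 0.70 ± 0.10 (limma adjusted p = 0.001), the largest rise among the members. Psmd7 (Rpn8), the inactive partner of the lid's deubiquitinase, had levels of 9.71, 9.98 and 10.34 in normal arrays and of 10.26, 10.52 and 11.34 in tumors, a difference of 0.62 ± 0.12 (adjusted p = 0.0039). The lowest tumor levels of Psmd7 reached just below the highest normal level. Psmd14 (Rpn11), the deubiquitinase itself, had levels of 9.31, 9.76 and 10.01 in normal arrays and of 9.97, 10.23 and 10.52 in tumors. Its difference was 0.54 ± 0.09 (adjusted p = 0.00178), again with a narrow overlap. Psmd11 94796_at (0.46, adjusted p = 0.00244) and Psmd3 (0.35, adjusted p = 0.0214) rose as well. A second Psmd11 probe set (0.15), Psmd6 (0.18), Psmd8 (0.05) and Psmd13 (0.01) did not pass.

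Outside the 26S particle, the nuclear activators Psme3 (PA28 gamma, 0.33, limma adjusted p = 0.0417) and Psme4 (PA200, 0.31, adjusted p = 0.0371) rose. These are 2 of 5 probe sets in this group (40%, against 17.0% of all probe sets). After median scaling neither was called (0.22, adjusted p = 0.136, and 0.21, adjusted p = 0.138), and with the replicate block Psme4 was not (adjusted p = 0.0686). Psme3 is the relative of Psme1 that interferon does not induce. The assembly chaperones Psmd5, Psmd9 and Psmd10 had differences of 0.34, -0.02 and 0.14 and did not pass. Psme3ip1 had a difference of -0.05. Counting all 44 tested members, 15 were higher (34.1%, against 17.0% of all probe sets) and 3 were lower (6.82%, against 16.5%).

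**Figure D2:**
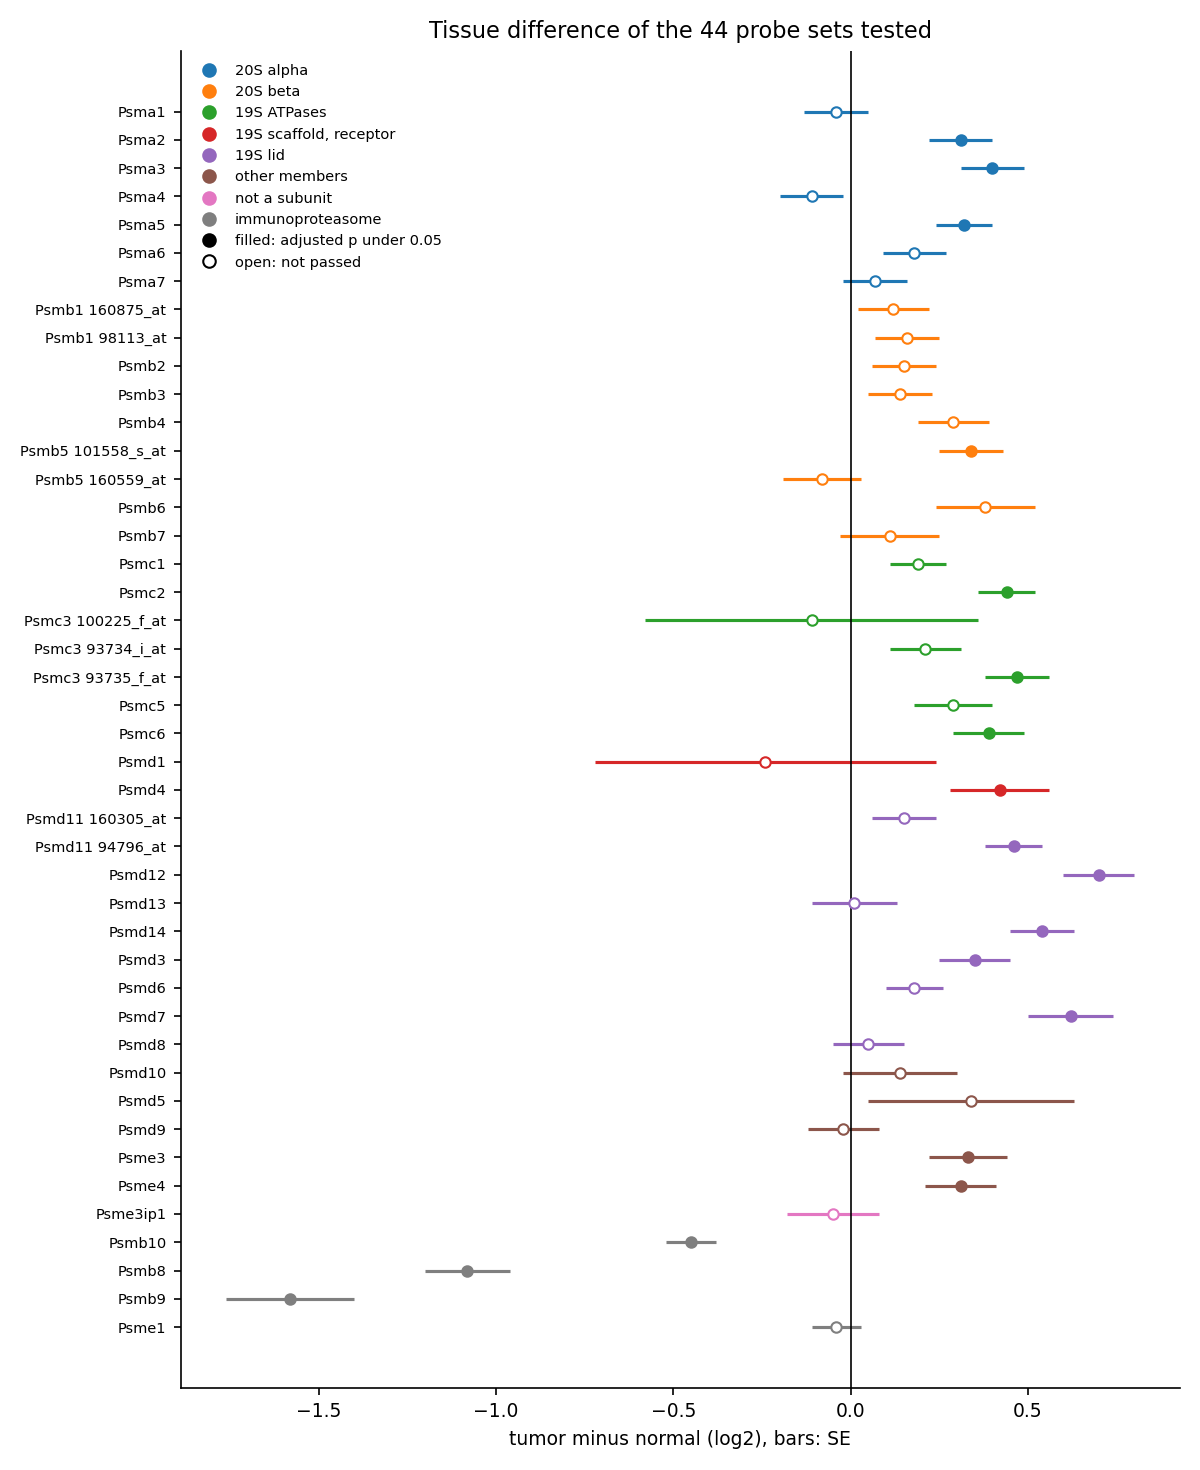
Difference in log2 level, tumor minus normal (horizontal axis), with its standard error, for the 44 member probe sets tested, grouped by role (colour). Filled points passed at an adjusted p under 0.05; Psmb8, Psmb9 and Psmb10 lie at -1.08, -1.58 and -0.45, and the called constitutive probe sets lie between 0.31 and 0.70.

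The fall of the inducible subunits was called under each of 3 scalings of the arrays; most of the constitutive rise was not. With each array scaled to a common median, the median of all probe sets moved to -0.10. Then 4 of 34 constitutive probe sets were called higher and 1 lower (Psma4, -0.38, limma adjusted p = 0.0153). Of all 7453 probe sets, 940 were called higher and 1746 lower under this scaling. The constitutive share called higher was thus near that of all probe sets. The constitutive median was then 0.01, which lies 0.11 above that of all probe sets. Of the 34, 12 changed sign, mostly among the alpha and beta rings. On the values as deposited, 8 of 35 constitutive probe sets were called higher and 0 lower, against 1505 higher and 824 lower of all 7453. This share called higher was again near that of all probe sets. The median of all probe sets was 0.13, and the constitutive median of 0.26 lay 0.13 above it. Under quantile normalization the corresponding gap was 0.21. Of all calls, 50.8% were upward under quantile normalization, 35% after median scaling and 64.6% as deposited. Psmd12, Psmd7, Psmd14 and Psmc3 93735_f_at were the 4 constitutive probe sets called higher under all 3 scalings. Psmb9, Psmb8 and Psmb10 had differences of -1.73, -1.30 and -0.76 after median scaling and of -1.50, -1.07 and -0.53 as deposited.

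Without the diet #2 arrays, whose normal samples carry the pancreas transcripts, 5 constitutive probe sets were called higher, with a median of 0.19; the same 3 immunoproteasome genes fell. Without the diet #1 arrays 13 constitutive probe sets were called, with a median of 0.27. Fewer arrays remain in both fits, and the share called over all probe sets was not computed for them. These counts therefore cannot be set against those from all arrays. The part of the pancreas transcripts in the constitutive values was not tested further.

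**Figure D3:**
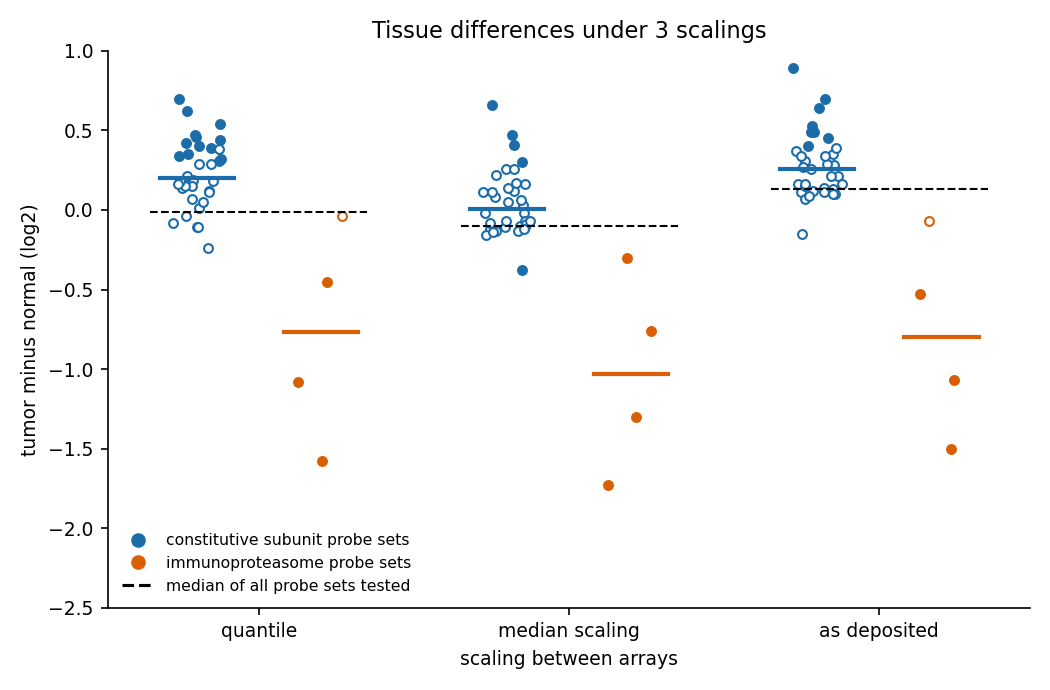
Tissue differences in log2 (vertical axis) of the constitutive (blue) and immunoproteasome (orange) probe sets under 3 scalings (horizontal axis). Filled points passed at an adjusted p under 0.05, short bars are group medians, and dashed lines the median of all probe sets tested; constitutive medians of 0.20, 0.01 and 0.26 sit near the dashed line while the immunoproteasome medians are -0.76, -1.03 and -0.80.

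The mean level of each group on each array was taken after centring every gene on its own mean. It uses the quantile-normalized values alone, so it restates those differences and does not cover the other scalings. The immunoproteasome mean of 4 genes was 0.18 to 0.47 on normal arrays and -0.50 to -0.21 on tumor arrays, with no overlap. The constitutive mean of 29 genes was -0.35 to 0.09 on normal arrays and -0.29 to 0.35 on tumor arrays, with overlap. The diet #1 arrays were low in constitutive subunits in both tissues (-0.35 and -0.33 in normal, -0.29 and -0.07 in tumor). Within each code pair the constitutive mean was nonetheless higher in the tumor, by the smallest margin in the Dnmt+/- pair of diet #1.

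**Figure D4:**
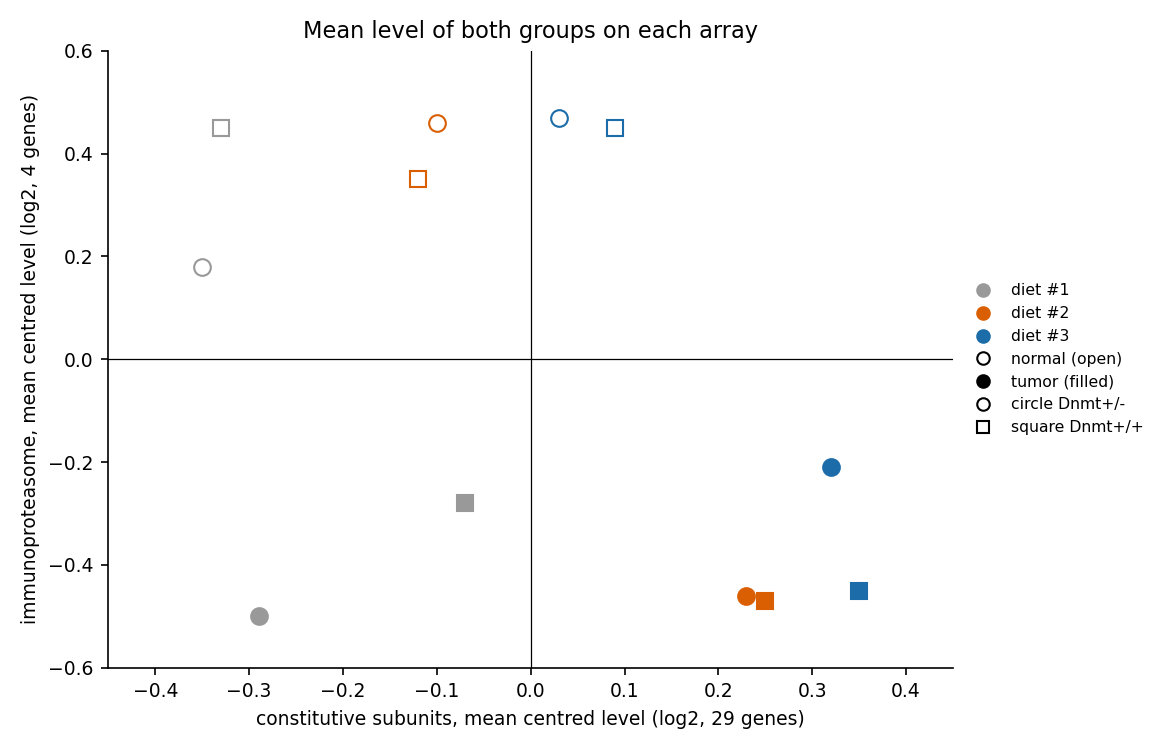
Mean centred log2 level of 29 constitutive genes (horizontal axis) against that of 4 immunoproteasome genes (vertical axis), 1 point for each of the 12 arrays; open points are normal, filled points tumor, colours diets, circles Dnmt+/- and squares Dnmt+/+. Normal arrays lie at or above 0.18 and tumor arrays at or below -0.21 on the vertical axis, and the 4 diet #1 arrays lie farthest left within their tissue.

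Of 9 tested genes in the class I and peptide loading list, which work with the immunoproteasome in antigen presentation, 5 were lower and 1 was higher. Their median difference was -0.36. Over all probe sets, 16.5% were called lower and 17.0% higher. Tap2 (-1.27 ± 0.24, limma adjusted p = 0.00318) and Tap1 (-0.93 ± 0.16, adjusted p = 0.00246), the neighbours of Psmb8 and Psmb9, fell most. Tap1 had levels of 9.79, 10.0 and 10.45 in normal arrays and of 8.71, 9.03 and 9.71 in tumors, so its tissues separated completely, as those of Psmb9 did. H2-K1 (-0.40), H2-D1 (-0.39) and B2m (-0.36), the class I heavy and light chains, fell by less; the H2-K1 and H2-D1 probe sets may also detect related class I genes. Pdia3, an oxidoreductase of the loading complex and of general glycoprotein folding, rose (0.55, adjusted p = 0.00236). Tapbp (-0.21), Canx (0.22) and H2-M3 (-0.24) did not pass.

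Of 21 tested genes in the interferon response list, 10 were lower and 1 was higher, with a median of -0.68. Over all probe sets, 16.5% were called lower and 17.0% higher. Ifi35 (-1.49 ± 0.09, limma adjusted p = 1.06e-05) had levels of 10.77 to 11.46 in normal arrays and 9.29 to 10.0 in tumors. Isg15 (-1.44), a ubiquitin-like modifier, and Ube2l6 (-1.02), its conjugating enzyme, whose lowest tumor levels of 5.57 lay near the floor of 5.48, both fell. So did Ifit1 (-1.42), Ifit3 (-1.28), the guanylate-binding and GTPase genes Igtp (-1.23), Gbp3 (-1.14) and Ifi47 (-0.33), and the transcription factors Irf7 (-0.75) and Irf9 (-0.68). Irf1, a factor known to drive Psmb9 and Tap1 transcription, had a difference of -0.38 ± 0.14 and did not pass (adjusted p = 0.0575). The 1 gene of the list that rose was Ifitm3 (1.61 ± 0.12), from 10.64 to 11.36 in normal arrays to 12.37 to 12.68 in tumors. After median scaling 13 of 20 tested interferon genes were lower, and as deposited 9 of 20. Of all 7453 probe sets, 1746 were lower after median scaling and 824 as deposited. Without the diet #2 arrays 3 of 21 interferon genes and 3 of 9 class I genes were called lower, with medians of -0.64 and -0.42. The share called over all probe sets was not computed for these fewer arrays.

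Markers of T and NK cells, which reside in the normal intestinal lining and express the inducible subunits strongly, were also lower in tumors. Of 17 listed genes 15 are on the array and 7 were tested. Of these, 4 were lower (against 16.5% of all probe sets) and 0 higher, with a median of -1.14. The median was -0.72 after median scaling (4 lower) and -0.49 as deposited (3 lower). Over all 7453 probe sets, 940 were higher and 1746 lower after median scaling, and 1505 were higher and 824 lower as deposited. Without the diet #2 arrays 2 of 6 were lower, with a median of -0.94, and the share over all probe sets was not computed. Ccl5 (-1.48), Trgv4 (-1.17) and Cd4 (-1.14) had the largest differences among those called. The lowest tumor levels of Trgv4 and Cd4 stood at the floor of 5.48, and Trgv4 was at most 6.43 in tumors. The sizes of these 2 falls therefore depend in part on the floor. The other 8 genes on the array, the Cd3 chains and Cd8 chains among them, were too dim to test, and none was at the floor on all arrays. The summed intensity of the list was 3146 to 5016 in normal arrays and 1638 to 2632 in tumors, lower in 6 of 6 pairs and without overlap. Its part in the fall of Psmb8, Psmb9 and Psmb10 was not tested. Pan-leukocyte markers had 0 of 8 genes called in limma in either direction, and 0 at an unadjusted p under 0.05 (summed intensity 3828 to 7272 in normal arrays and 3209 to 7919 in tumors). Among B and plasma cell markers 1 of 6 was lower, a share near the 16.5% of all probe sets. Among macrophage and dendritic cell markers 4 of 10 were lower and 2 higher, which became 7 and 1 after median scaling and 1 and 1 as deposited. Among stromal lists, 6 of 10 fibroblast and matrix genes were higher, against 17.0% of all probe sets. Of 7 smooth muscle genes 0 were called in limma (1 at an unadjusted p under 0.05), and 2 were lower after median scaling. Of 5 endothelial genes, 1 was called in each direction.

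**Figure D5:**
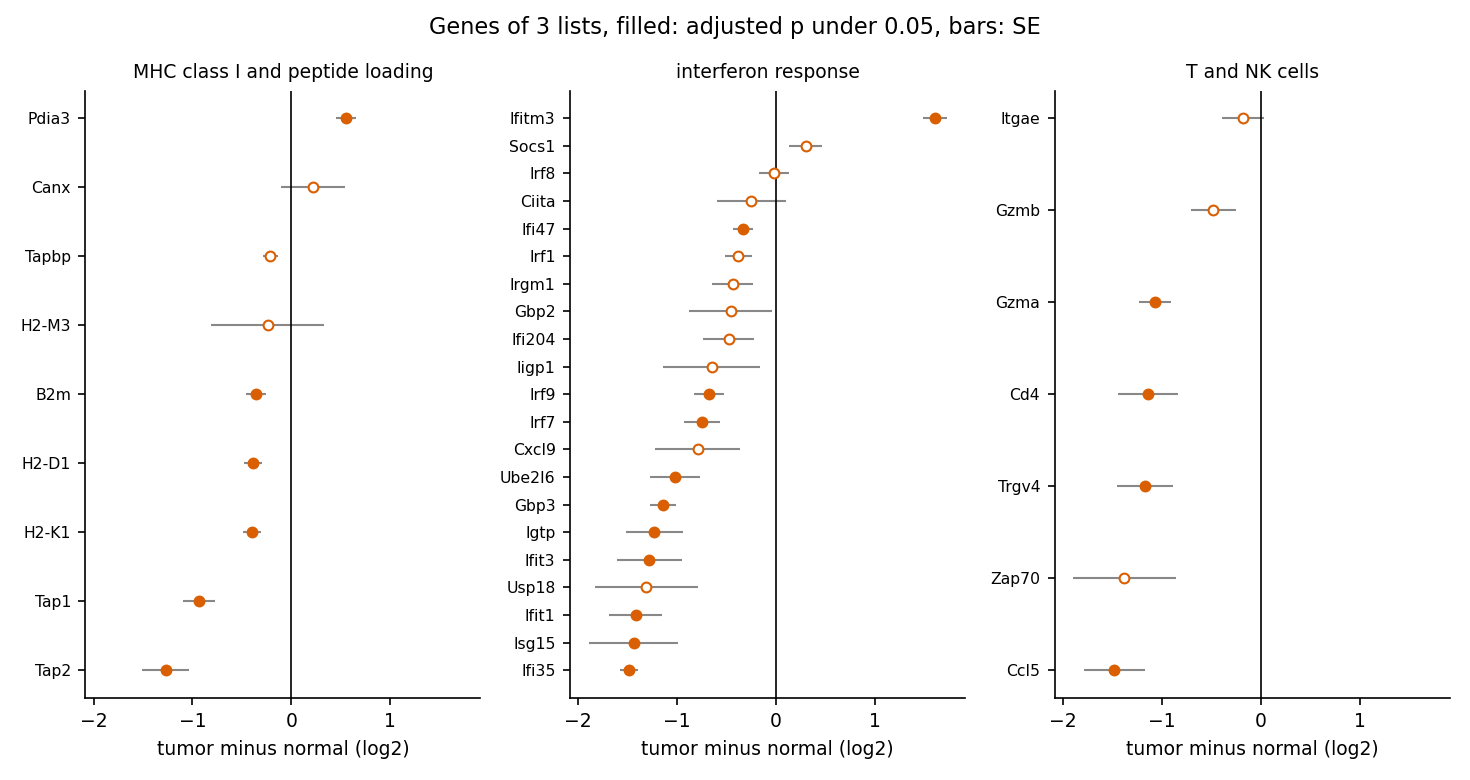
Tumor minus normal difference in log2 (horizontal axis) with its standard error for the tested genes of the class I, interferon, and T and NK cell lists (rows). Filled points passed at an adjusted p under 0.05. By list 5 of 9, 10 of 21 and 4 of 7 were lower, against 16.5% of all probe sets. Pdia3 and Ifitm3 were the genes that rose.

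In the list of ubiquitin enzymes and proteasome partners, 8 of 29 tested genes were higher and 1 was lower, with a median of 0.19. Over all probe sets, 17.0% were called higher and 16.5% lower. Skp1 (0.67, limma adjusted p = 0.000976), a core part of SCF ubiquitin ligases, Ube2s (0.58, adjusted p = 0.0143), a conjugating enzyme of the anaphase-promoting complex, and Usp14 (0.54, adjusted p = 0.023), a deubiquitinase that rides on the 19S cap, had the largest differences among the genes called. The 1 gene that fell was the conjugating enzyme Ube2b (-0.51, adjusted p = 0.00486), named after its value was seen. After median scaling 5 were higher and 2 lower, and as deposited 10 were higher and 0 lower. Nfe2l1 (Nrf1), the factor known to restore proteasome gene transcription when proteasomes are inhibited, had a difference of 0.19 ± 0.07 and did not pass (adjusted p = 0.0836). In the list of Nrf1 and Nrf2 factors and targets 2 of 11 genes were lower, a share near the 16.5% of all probe sets, and 0 higher: Nqo1 (-0.78, adjusted p = 0.00285), an antioxidant reductase, and Nfe2l2 (-0.67, adjusted p = 0.00378), which encodes Nrf2. After median scaling 5 of the 11 were lower, and as deposited 2 were lower and 1 higher. Of all 7453 probe sets, 940 were higher and 1746 lower after median scaling, and 1505 were higher and 824 lower as deposited.

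Dnmt genotype left no called difference among the members. Of 44 tested, 0 passed between Dnmt+/- and Dnmt+/+ arrays in limma, against 0.0134% of all probe sets (1 probe set); 1 member had an unadjusted p under 0.05. That member was the lid subunit Psmd7, at -0.28 ± 0.11 and lower in 6 of 6 matched comparisons (limma adjusted p = 0.719). Psmc1 (-0.12 ± 0.08) and Psma1 (-0.13 ± 0.08) followed. For the inducible subunits the genotype difference was -0.18 ± 0.17 for Psmb9, 0.10 ± 0.11 for Psmb8 and 0.03 ± 0.06 for Psmb10, each within about 1 standard error. The tissue difference did not pass a test of dependence on genotype for any member, against 0.00% of all probe sets (0 of 7453, with 171 at an unadjusted p under 0.05, 0 of them members). The smallest p-values were those of Psmc3 100225_f_at (-1.71 ± 0.82), Psmd10 (0.51 ± 0.31) and Psme3 (-0.30 ± 0.23). For Psmb9 and Psmb8 this interaction was -0.07 ± 0.42 and 0.12 ± 0.27.

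Between diets #3 and #2, 5 of 44 members were higher on diet #3 and 1 was lower, against 9.07% of all probe sets called in either direction. Diet differs only between sample codes, and each diet has 2 codes. With a fitted correlation of -0.15 within codes, the arrays of a code were counted as nearly independent. The p-values of this comparison therefore rest on few units. The ending of the code also changes with the diet, and the labels do not say what it marks. Psmd11 94796_at was higher by 0.78 ± 0.09 (limma adjusted p = 0.00345), and Psmd7 (0.54), Psmd12 (0.50), Psma4 (0.49) and Psma7 (0.37) were higher too. The second tested Psmd11 probe set, 160305_at, had a diet difference of only 0.02 ± 0.1 (limma adjusted p = 0.923), so the Psmd11 probe sets disagree. The lid subunit Psmd3 was lower on diet #3 (-0.54 ± 0.11, adjusted p = 0.0181). The count was 3 without the replicate block on the sample code, 1 on the values as deposited and 11 without the diet #1 arrays. Without 1 of 7 arrays it was 1 to 3: either Dnmt+/- or either Dnmt+/+ array of diet #2 (2 or 3), or the normal Dnmt+/- (1), normal Dnmt+/+ (2) or tumor Dnmt+/+ (3) array of diet #3. For the inducible subunits the diet difference did not pass: 0.12 ± 0.21 for Psmb9, 0.04 ± 0.14 for Psmb8 and 0.14 ± 0.08 for Psmb10. No member's tissue difference passed a test of dependence on diet #3 against #2, against 0.322% of all probe sets; at an unadjusted p under 0.05 there were 752 probe sets, 0 of them members. The smallest p-values were those of Psma2 (-0.39 ± 0.18), Psmd3 (0.40 ± 0.20) and Psmc5 (-0.40 ± 0.21), each with an adjusted p of at least 0.52 in limma. Both normal arrays of diet #2 carry the pancreas transcripts described above. In normal tissue, diet #2 and this content cannot be told apart, which bears on the diet comparison and on the test of dependence. Differences that involve diet #1 were not interpreted because of its file format.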

How the data were processed

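RNA of 12 tissue samples was hybridised to single-colour Affymetrix arrays. The values are linear intensities as deposited; the software that summarised probes and the scaling target are not given in the sources used here. Means of 1000 on 8 arrays and a floor of 50 on the 4 diet #1 arrays were found in the values themselves. After removal of 66 control probe sets, 12422 were quantile normalized, floored at the 20th percentile (44.8, or 5.48 in log2), converted to log2 and filtered (lowest 40% by mean left out; 7453 tested). Symbols came from GEO's platform annotation: 10833 probe sets had 1 symbol, 396 several and 1193 none; 10817 were matched by Entrez number to RefSeq GRCm38.p6, with 0 symbols changed.

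For tissue, limma 3.58.1 (R 4.3.3; lmFit and eBayes) fitted diet and genotype as covariates; genotype, diet and interactions used duplicateCorrelation on the sample code (correlations of -0.15, -0.15 and 0.04). Adjusted p-values are Benjamini-Hochberg over all probe sets tested, called under 0.05. The members, the 21 gene lists and the tests were chosen with earlier results of these data known. Every member may be named; of each list the 3 called genes of largest difference are named, and any called gene of the class I and interferon lists. Lists use the brightest probe set of each gene. The procedure was tested on simulated data. Precision is limited by the number of arrays. Samples of 1 code deviate together from their tissue mean (correlations 0.48 to 0.68). Once diet and genotype are removed, the correlations are -0.56 to -0.38. With so few arrays the fit itself pushes these residual correlations below 0, and each code is the only one of its diet and genotype. The check therefore cannot show whether samples of 1 code share more than diet and genotype. Arrays of a tissue correlate at most at 0.981, and none is a duplicate.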

Additional observations from a re-analysis of the deposited data

Results flagged for a closer look

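In 88 sets of 6 arrays (each tested member in each tissue), 5 had 1 array far from the others by Dixon's gap test at its 95% critical value. About 5% of sets are expected to do so by chance, and all 5 involve arrays of diet #1. The normal Dnmt+/- array was lowest for Psmb9 (10.34, the next at 10.95), and the tumor Dnmt+/- array was lowest for Psme4 (9.23, the next at 9.71). Psmc3 100225_f_at was lowest on the normal Dnmt+/+ array (5.48, the next at 8.06) and on the tumor Dnmt+/- array (5.57, the next at 7.60), both at 50 in the deposited values. Psma1 was highest on the normal Dnmt+/+ array (9.72, the next at 9.43).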

How the results depend on the processing

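The count of 3 lower immunoproteasome probe sets stayed at 2 to 4 in 12 of 14 alternatives; with 4 arrays of a single diet it was 0 on diet #1 and 1 on diet #3. The constitutive count of 13 became 4 after median scaling (with 1 lower), 8 as deposited, 5 without diet #2, and 0, 1 and 0 within diets #1, #2 and #3 alone. After median scaling and as deposited, the share called higher was near that of all probe sets. For the sets of fewer arrays, the share over all probe sets was not computed. The constitutive median of 0.20 became 0.01 after median scaling, 0.29 with the brightest probe set per gene, 0.27 without diet #1 and 0.32 within diet #2. The immunoproteasome median became -1.03 after median scaling and -0.45 with no filter. After median scaling 12 of the 34 constitutive probe sets changed sign. Among the constitutive catalytic subunits, the values that changed sign were those of Psmb7 (-0.09 after median scaling, -0.22 within diet #1), Psmb6 (-0.02 within diet #1) and Psmb5 160559_at (0.13 as deposited); so did the median of all probe sets (0.13 as deposited). The diet #3 count of 6 became 1 as deposited, 3 with no replicate block and 11 without diet #1. Without diets #1 and #2, Psmb9 against Psmb6 was -2.20 and -1.70 and Psmb8 against Psmb5 was -1.62 and -1.24, at an exact permutation p of 0.125, the smallest that 4 pairs allow. Apart from these cases, whose fewer arrays or probe sets are part of the alternative, the cause was not tested. With the sample code as a replicate block, 11 constitutive probe sets were higher and 3 immunoproteasome probe sets lower, and the calls of Psma2, Psmd4 and Psme4 were lost; no other member's call changed. Leaving out each array in turn gave 11 to 15 constitutive calls (median 0.19 to 0.27), 3 to 3 immunoproteasome calls (median -0.81 to -0.73), 1 to 7 diet calls, and -2.07 to -1.83, -1.53 to -1.32 and -0.74 to -0.46 for the Psmb9, Psmb8 and Psmb10 pairs; with 5 pairs an exact p cannot pass 0.05. The block for every member, the second Psmb5 probe set, and counts for the class I, interferon, and T and NK lists under other scalings and without diet #2 were added after seeing the data. Many diet #1 values lie at the deposited 50, which limits what dim members can show there.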
